A study of Mus musculus with 6 samples.

Results

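The genes described are 37 mouse genes of the lysosome, of 32288 genes counted. They were chosen by name, from their known function, but with earlier results of these data known, so the list was not blind to the data. They fall into 11 cathepsins and other proteases, 10 glycosidases and sulfatases, 5 lipid hydrolases, 4 cofactors and soluble carriers, and 7 membrane proteins. All 37 were found among the mouse genes of the count matrices. The question was which of them were higher in brain sections with amyloid pathology, which were flat, and how their levels were spread over brain areas.

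The sections came from female targeted replacement mice homozygous for human APOE3 (E3) or APOE4 (E4), in which the human coding sequence stands in place of mouse Apoe under the mouse promoter, in the control groups as well. Each genotype gave 1 coronal section of 10 µm of the right hemibrain in each of 3 conditions, which the text calls young (3 months), aged (24 months) and 5xFAD (12 months). The 5xFAD mice also carried transgenes that include mutant human APP under neuronal Thy1 cassettes and were bred from a B6SJL strain, so 5xFAD against young sets apart not only the transgenes but also age, strain background and possibly slide or run. The 6 sections were placed on Visium arrays, on which each barcoded spot takes up RNA from several cells and each molecule counts once through its unique molecular identifier (UMI).

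Lysosomes break down proteins, glycans, lipids and nucleic acids in an acidic lumen that a proton pump maintains. Cathepsins and glycosidases are made as precursors, reach the lysosome mostly through the mannose 6-phosphate receptors and work there with small cofactors such as the saposins, while the membrane is lined with heavily glycosylated proteins such as Lamp1 and Lamp2. Every brain cell has lysosomes, but microglia, the phagocytes of the brain, are rich in cathepsins and in Cd68, and mutations in many of these enzymes cause storage disorders of neurons.

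Many lysosomal genes share a promoter element, the E-box CACGTG, which in its longer form TCACGTGA is the core of the CLEAR element bound by TFEB and its relatives. It was searched for in the RefSeq window from 250 bases before to 50 bases after each gene's start (GRCm38.p6, the patched form of mm10). Windows were held for 34 of the 37 genes, the exceptions being Asah1, Ctsb and Ctsh. CACGTG reads the same on both strands, TCACGTGA contains it, and CACGTG stood in 12 of the 34 against 8.09% of 27025 genes with a window. Upstream here means before the RefSeq start that sets the window, which can lie inside the wider mm10 span of a gene. The copies shown for Ctsa, Ctsd, Naglu and Ctsl lie within that span, and the copy of Sgsh lies across its edge. The sequences below show, 5′ to 3′ on the strand of the gene, the upstream copies of 7 genes that the results turn on, with the motif in capitals. They lie at chr2:164833749-164833778 (+) for Ctsa, chr7:142387908-142387937 (−) for Ctsd, chr11:101070009-101070038 (+) for Naglu, chr13:64370739-64370768 (−) for Ctsl, chr15:89477423-89477452 (−) for Arsa, chr11:119267811-119267840 (+) for Gaa and chr11:119355522-119355551 (−) for Sgsh.
Ctsa: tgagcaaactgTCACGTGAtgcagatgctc
Ctsd: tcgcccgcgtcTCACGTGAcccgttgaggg
Naglu: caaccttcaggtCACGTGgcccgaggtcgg
Ctsl: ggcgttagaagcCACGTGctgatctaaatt
Arsa: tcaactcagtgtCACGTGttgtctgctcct
Gaa: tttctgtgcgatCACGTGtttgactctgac
Sgsh: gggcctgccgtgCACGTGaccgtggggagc

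The full TCACGTGA stood in 3 genes, Ctsa, Ctsd and Gla, against 1.12% of all genes. Ctsf, Lgmn, Glb1, Gla and Lamp1 held the other upstream copies of CACGTG, and Ctsd a further one. A second motif, GAGGAAGT, the core bound by the myeloid factor PU.1, was searched for on both strands after the values had been seen, and stood in Ctsc, Ctss, Gusb and Gla against 3.69% of all genes. A match describes letters in a window and not binding.

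The sections held 20343701 to 37266232 UMIs over 1688 to 2773 spots, with medians of 10081.5 to 15360 UMIs per spot. The spots were grouped into areas by clustering on genes that left out the 37, and UMIs were summed per area and section, so that a level below is in CPM, the UMIs of a gene scaled to the total of that area in that section. The cortex of the E4 aged section stood apart with 250 spots, against 764 to 1026 in the other 5. Neuronal markers summed to 9266 to 12143 CPM in the cortex of every section, although the labels give non-neuronal brain cells as the material. Barcodes were shared between sections (1387 occurred in all 6), since the grid of spot barcodes is fixed. With 1 mouse per group, the tests rest on an additive edgeR quasi-likelihood fit of genotype and condition over the 6 sections, with Benjamini-Hochberg adjustment over all genes tested. This fit has 2 residual degrees of freedom beside those borrowed across genes, and no genotype by condition term. In this fit the residual spread is the departure from the additive fit, which mixes variation between sections with any genotype by condition difference. The p-values rest on it and on the variance borrowed across genes. Shares of all genes beside test counts refer to an adjusted p under 0.05. Counts at an unadjusted p under 0.05 have no such share beside them and are not read as a result about the 37.

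In the cortex, the 37 genes together made up 0.421% and 0.426% of the UMIs of the E3 and E4 young sections, 0.433% and 0.441% of the aged sections, and 0.590% and 0.721% of the 5xFAD sections. In the thalamus the shares were 0.476% and 0.423%, then 0.513% and 0.485%, then 0.875% and 0.853%, in the same order. Both 5xFAD sections stood above the other 4 in either area. Psap, the precursor of the saposins, alone accounted for a large part of this pool, and without it the cortical share was 0.290% to 0.305% in the 4 sections without the transgenes and 0.450% and 0.560% in the 5xFAD sections.

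**Figure D1:**
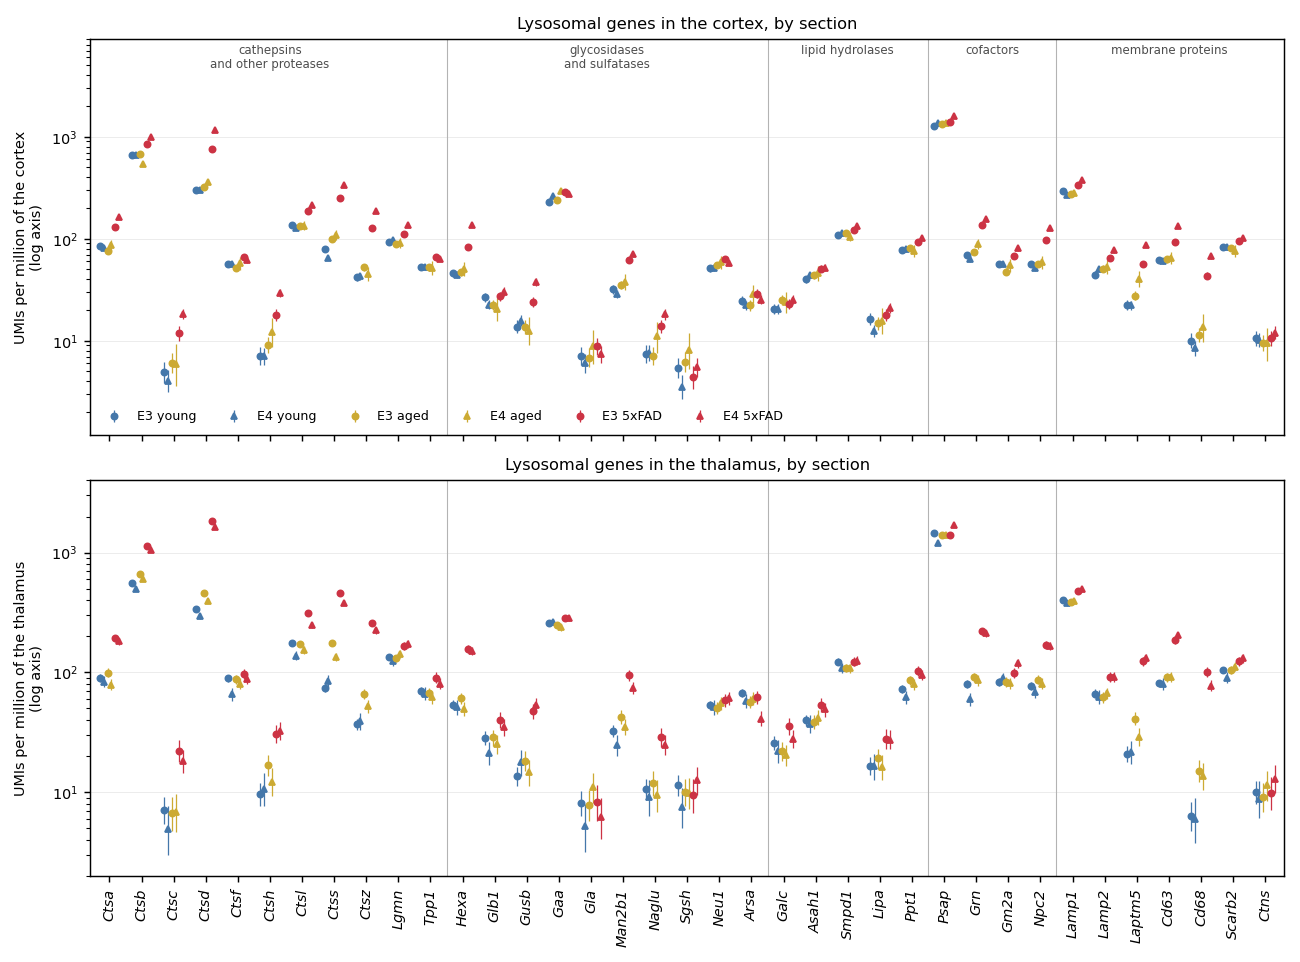
Levels in CPM (log axis) of the 37 genes in the cortex (top) and the thalamus (bottom), 1 point per section with a 95% interval of counting error; circles are E3 and triangles E4, blue young, yellow aged and red 5xFAD. Red points lie clear of the others for Cd68, Ctsd, Ctss, Ctsz and Laptm5, and lie close to the others for Psap, Smpd1, Neu1 and Ctns. In the cortex the E4 5xFAD triangle stands above the E3 circle for the genes that rose most, and in the thalamus it does not for Cd68, Ctsd, Ctss and Ctsz.

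In 5xFAD against young, 16 of 37 genes rose in the cortex and none fell, beside 1.07% of 14948 genes that rose there and 0.0803% that fell. The count was 17 of 37 in the thalamus (1.75% of all genes) and 11 of 37 in the hippocampus (0.728%). It was 3 of 37 in the hypothalamus (0.195%), 11 of 35 in the cerebral nuclei (0.578%) and 2 of 35 in the fiber tracts (0.13%, where 0.0108% of all genes fell). Gla and Sgsh were too low to be tested in the last pair of areas. Outside the thalamus the counts moved when single sections were left out: without the E4 young section 5 genes passed in the cortex and 4 in the cerebral nuclei, without the E4 5xFAD section 10 cortical and 7 hippocampal genes and 6 in the cerebral nuclei. The hypothalamic count was 2 without the E4 young section and 5 to 10 without any other single section. In the fiber tracts none passed without the E3 young, the E4 young or the E4 5xFAD section, and 10 and 11 passed without the E3 and the E4 aged section. The median log2 difference of the 37 was 0.33 in the cortex and 0.51 in the thalamus, where the medians over all genes were −0.00 and −0.01.

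Cd68 and the aspartic protease Ctsd rose in all 6 areas, and the carboxypeptidase Ctsz in 5 of them. In the fiber tracts both calls were lost without the E3 young, E4 young or E4 5xFAD section and among spots with at least 3000 UMIs, and that of Cd68 also without the E3 5xFAD section, by DESeq2 and with clusters made without section centring. Ctss, Hexa, Grn, Npc2 and Laptm5 rose in 4. In all, 18 genes rose in 1 area or more. The other 19 passed the test nowhere: Ctsf, Lgmn, Tpp1, Glb1, Gaa, Gla, Sgsh, Neu1, Arsa, Galc, Asah1, Smpd1, Lipa, Ppt1, Psap, Gm2a, Lamp1, Scarb2 and Ctns. Of the 16 that rose in the cortex, 15 also rose in the thalamus, the exception being Lamp2. These 2 areas come from the same sections.

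**Figure D2:**
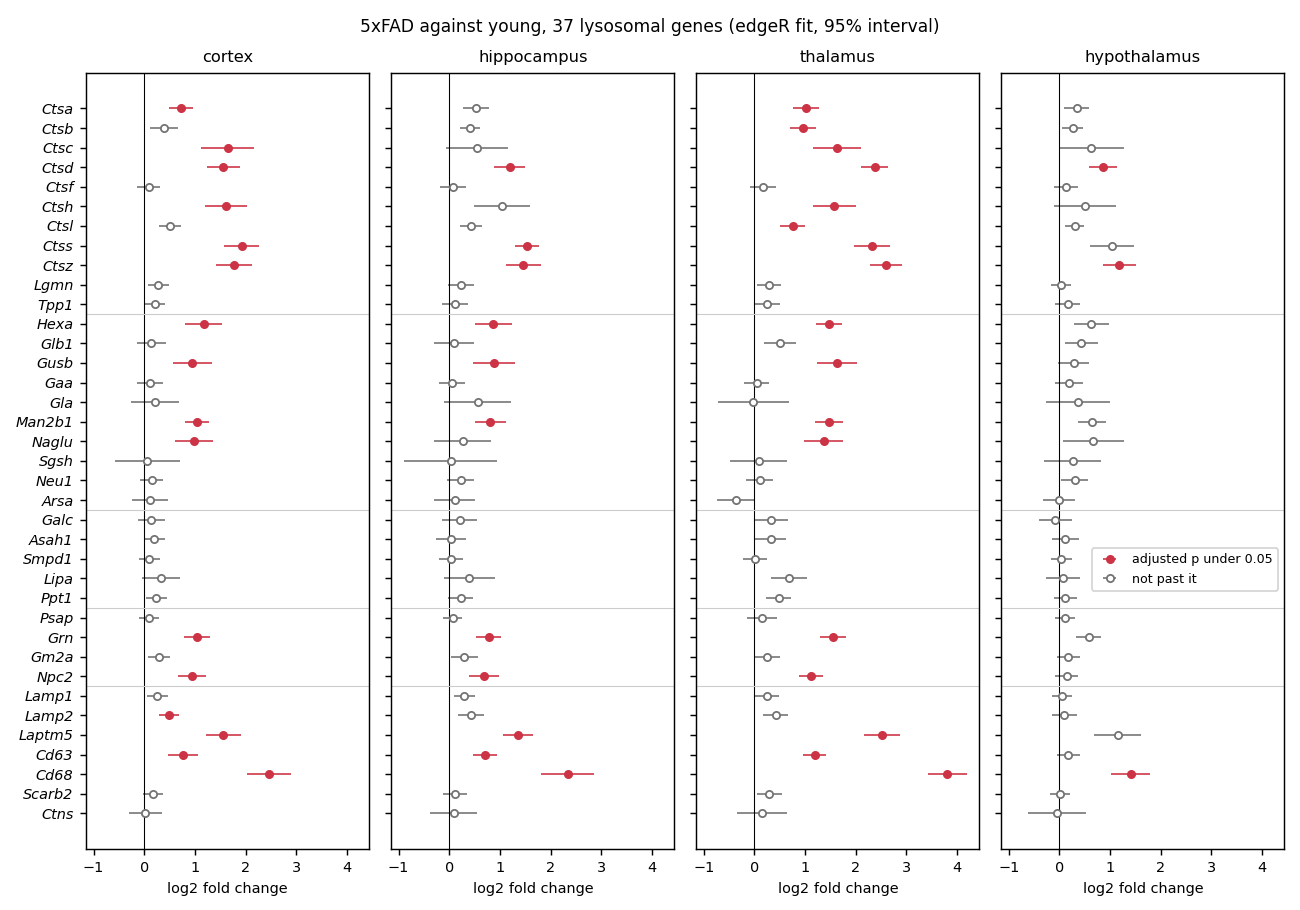
Log2 fold change, 5xFAD against young, of the 37 genes in 4 areas, from the edgeR fit over 6 sections with its 95% interval; red points have an adjusted p under 0.05 and open points do not. The rows run from proteases at the top to membrane proteins at the bottom, and the red points number 16 in the cortex, 11 in the hippocampus, 17 in the thalamus and 3 in the hypothalamus.

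Among the proteases, 6 of 11 rose in the cortex with a median log2 difference of 0.72 over the 11. Ctsd, the main aspartic protease of the lysosome (mm10 chr7:142375911-142388038, minus strand), stood at 303 and 298 CPM in the E3 and E4 young sections, 325 and 364 in the aged sections, and 763 and 1172 in the 5xFAD sections. Both 5xFAD values were above all others, and the E4 value was the highest. Its log2 difference from young was 1.56 ± 0.14 (SE, edgeR, adjusted p = 0.00232). In the thalamus Ctsd stood at 338 and 294 in young, 462 and 394 in aged, and 1839 and 1648 in 5xFAD, a log2 difference of 2.38 ± 0.12. There the E3 5xFAD section was the highest.

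Ctss (chr3:95526786-95556403, plus strand), a cysteine protease that antigen-presenting cells use to trim the invariant chain, stood at 78.9 and 65.5 in young cortex, 99.3 and 110 in aged cortex, and 249 and 340 in 5xFAD cortex. The 3 conditions did not overlap, in the order young, aged, 5xFAD, and only the 5xFAD difference passed the test in this area (1.92 ± 0.15, edgeR adjusted p = 0.00135). The carboxypeptidase Ctsz (chr2:174427493-174439039, minus strand) stood at 42.0 and 42.8, then 52.3 and 45.3, then 127 and 186, with a log2 difference of 1.78 ± 0.15 in the cortex and 2.60 ± 0.14 in the thalamus. Its young and aged values lay close together and both 5xFAD values were far above them.

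The 2 exopeptidases of lower count, Ctsc and Ctsh, rose by similar log2 amounts in the cortex. Ctsc, a dipeptidyl peptidase that activates serine proteases of immune cells, stood at 4.92 and 4.05, then 6.05 and 5.98, then 11.8 and 18.4 (1.64 ± 0.22, edgeR adjusted p = 0.0187). Ctsh, an aminopeptidase, stood at 7.10 and 7.07, then 9.08 and 12.3, then 17.9 and 29.3 (1.61 ± 0.18, adjusted p = 0.0068). The E4 aged values of these genes rest on 19 and 39 UMIs. Neither passed the test in the hippocampus.

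Ctsb and Ctsl, the broadly expressed cysteine endopeptidases, rose in the thalamus and did not pass in the cortex. Ctsb stood at 669 and 658 in young cortex, 685 and 545 in aged cortex and 856 and 1003 in 5xFAD cortex, a log2 difference of 0.39 ± 0.12 (edgeR adjusted p = 0.28). In the thalamus it went from 553 and 498 in young, through 659 and 597 in aged, to 1138 and 1045 in 5xFAD (0.97 ± 0.12). The order of the conditions was the same in both areas apart from the low E4 aged cortex. Ctsl missed the threshold narrowly in the cortex, at 0.51 ± 0.09 (adjusted p = 0.0531), and passed in the thalamus at 0.76 ± 0.11.

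Ctsa, the carboxypeptidase that also shields Glb1 and Neu1 in a complex, rose in the cortex from 85.0 and 81.3 in young to 130 and 165 in 5xFAD, with 76.7 and 85.9 in aged (0.72 ± 0.11). Neither partner moved with it beyond the threshold: Glb1 was at 26.7 and 22.6 in young, 22.5 and 20.5 in aged and 27.2 and 30.4 in 5xFAD, and Neu1 at 51.2 and 51.3, 55.5 and 58.6, and 63.0 and 57.9. The log2 difference of either partner was 0.14, and neither passed the test in any area. Ctsf (0.09), the asparaginyl endopeptidase Lgmn (0.28) and the tripeptidyl peptidase Tpp1 (0.21) did not pass in the cortex either.

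Of the glycosidases and sulfatases, 4 of 10 rose in the cortex: Hexa, Man2b1, Naglu and Gusb. Hexa, the alpha subunit of beta-hexosaminidase, stood at 45.7 and 44.5 in young, 46.8 and 50.7 in aged, and 83.9 and 138 in 5xFAD (1.17 ± 0.16, edgeR adjusted p = 0.0175). The 4 sections without the transgenes differed little among themselves, and the E4 5xFAD section was the highest. Man2b1, which trims mannose from glycoproteins, rose by 1.04 ± 0.10, from 31.8 and 28.6 through 35.2 and 37.8 to 62.6 and 70.6.

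Naglu and Sgsh both act in the breakdown of heparan sulfate, and Naglu rose while Sgsh did not pass. Naglu stood at 7.45 and 7.65, then 7.14 and 11.0, then 13.9 and 18.2 (0.98 ± 0.16, edgeR adjusted p = 0.0412). Sgsh stood at 5.41 and 3.54, then 6.21 and 8.19, then 4.39 and 5.50. Its log2 difference was 0.06 with a 95% interval of −0.58 to 0.70, so that a change in either direction within this interval stays possible. Gusb, beta-glucuronidase, went from 13.8 and 15.8 through 13.7 and 12.6 to 24.0 and 37.7 (0.95 ± 0.17, adjusted p = 0.0459). Naglu and Gusb lay near the threshold.

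Glb1, Neu1, Gaa, Gla and Arsa also did not pass. Gaa, the glucosidase that degrades glycogen, stood at 228 and 261 in young, 239 and 297 in aged and 288 and 274 in 5xFAD cortex, where the aged E4 section was the highest. Arsa, which removes sulfate from the myelin lipid sulfatide, was at 24.7 and 22.2, 22.3 and 29.0, and 28.9 and 25.4. In the thalamus Arsa stood at 67.1 and 57.4 in young, 56.7 and 60.3 in aged, and 61.8 and 41.0 in 5xFAD, with the largest negative log2 difference of the 37 there (−0.37 ± 0.16, edgeR adjusted p = 0.47), where the E4 section was the lowest of the 6.

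None of the 5 lipid hydrolases passed the test in any of the 6 areas. In the cortex their log2 differences ran from 0.10 for the acid sphingomyelinase Smpd1 to 0.33 for the acid lipase Lipa, with the galactosylceramidase Galc at 0.14, the acid ceramidase Asah1 at 0.20 and the thioesterase Ppt1 at 0.23. Smpd1 stood at 109 and 114 in young, 113 and 105 in aged, and 123 and 132 in 5xFAD. The nearest to the threshold were Ppt1 in the thalamus, at 72.5 and 62.0, then 86.2 and 79.3, then 103 and 95.6 (0.48 ± 0.11, edgeR adjusted p = 0.0595), and Lipa there (0.68 ± 0.16, adjusted p = 0.0786). Both 5xFAD sections were the highest in each case.

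The cofactors parted in pairs. Grn, progranulin, which is cleaved in the lysosome into granulins, stood at 69.5 and 63.2 in young cortex, 73.4 and 89.4 in aged, and 135 and 157 in 5xFAD (1.04 ± 0.11, edgeR adjusted p = 0.0066). Npc2, which hands cholesterol to the membrane, stood at 56.9 and 51.8, then 56.8 and 59.2, then 97.4 and 127 (0.94 ± 0.12, adjusted p = 0.0122). Both rose. Psap (chr10:60277627-60302597, plus strand) stood at 1271 and 1365, then 1322 and 1362, then 1400 and 1603, with a log2 difference of 0.09 and a 95% interval of −0.11 to 0.29, and Gm2a, the activator that presents ganglioside to beta-hexosaminidase, was at 0.29. Neither passed, although both 5xFAD sections were the highest for Psap.

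Among the membrane proteins, 4 of 7 rose in the cortex. Cd68 (chr11:69664213-69666153, minus strand), a glycoprotein of macrophage and microglial lysosomes, had the highest log2 difference of all 37 in the cortex, hippocampus, thalamus and hypothalamus. It stood at 10.1 and 8.49 in young cortex, 11.4 and 13.5 in aged cortex, and 43.6 and 67.5 in 5xFAD cortex (2.47 ± 0.19, edgeR adjusted p = 0.00117). In the thalamus it stood at 6.31 and 5.97, then 14.98 and 13.5, then 101 and 77.0 (3.81 ± 0.17, adjusted p = 1.23e-06). The conditions did not overlap in either area, and the 5xFAD sections were the highest.

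Laptm5, a lysosomal protein of blood-derived and microglial cells, stood at 22.6 and 22.2, then 27.6 and 40.3, then 56.3 and 87.5 in the cortex (1.56 ± 0.15, edgeR adjusted p = 0.0035). The tetraspanin Cd63 stood at 62.5 and 60.5, then 62.8 and 65.5, then 93.5 and 133 (0.77 ± 0.13). Both followed the order of Cd68 in that the E4 5xFAD section was the highest. Lamp2 had the lowest log2 difference of the genes that passed (0.48 ± 0.09, adjusted p = 0.0487), and Lamp1, the other main glycoprotein of the membrane, at 291 and 268, 276 and 283, and 337 and 374, did not pass (0.25). Scarb2, the receptor that carries glucocerebrosidase to the lysosome, was at 0.17 and the cystine transporter Ctns at 0.02.

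Of the 21 genes that did not pass in the cortex, 15 had a 95% interval of the log2 difference within −0.5 to 0.5, so that a larger change lay outside the interval. In the thalamus this held for 7 of 20. Counted without a test, both 5xFAD sections stood above the other 4 for 31 of 37 genes in the cortex (20.8% of all genes) and for 30 of 37 in the thalamus (20.4%), and below them for none (4.62% and 4.87%). The 6 exceptions in the cortex were Gaa, Gla, Sgsh, Neu1, Arsa and Galc.

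Other lysosomal genes that are no members of the 37 were counted from fixed lists. In 5xFAD against young, Dnase2a, a hydrolase that digests DNA, rose in the cortex (1.52 ± 0.21) and in the thalamus (1.88). In the cortex none of 18 proton pump genes (median log2 difference −0.04), none of 17 genes of sorting and none of 12 regulators passed. Of 19 other membrane genes 2 rose, the metal transporter Slc11a1 (2.39 ± 0.39) and the peptide transporter Slc15a3 (2.25 ± 0.25), both known from phagocytes. In the thalamus again none of the 18 proton pump genes passed.

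Genes of microglia moved with these differences. The summed level of 13 markers of activated microglia, none of them among the 37, was 164 and 151 CPM in young cortex, 189 and 226 in aged cortex, and 686 and 1098 in 5xFAD cortex. In the thalamus it was 169 and 180, then 260 and 249, then 1604 and 1303. The order of the sections was that of Cd68 and Ctsd in both 5xFAD pairs. In the cortex 11 of these 13 rose in 5xFAD against young, and 6 of 13 general microglial markers did, among them Tmem119 (0.89), Cx3cr1 (0.88) and Csf1r (0.91).

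The homeostatic microglial gene P2ry12 stood at 34.6 and 27.5, 29.9 and 35.9, and 40.4 and 38.6, and did not pass (0.26 ± 0.14, edgeR adjusted p = 0.568). Markers of astrocytes (0 of 11 in the cortex), oligodendrocytes and neurons did not pass either, while 4 of 6 markers of reactive astrocytes rose. The summed level of 6 border macrophage markers was low in the cortex, at 1.69 to 4.17 CPM, with 3 of them, Lyve1 included, at 0 in the E4 aged section. The part of these cells in the lysosomal differences was not tested, and in spots a larger number of cells and more RNA per cell cannot be told apart. A sum of Malat1, Gm42418 and the mitochondrial protein genes, read as a sign of RNA quality, was lowest in the 5xFAD cortex (115359 and 84399 CPM against 126856 to 143433), and its part was not tested.

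Thalamic spots held a cluster of 265 spots, of which 141 lay in the E3 and 94 in the E4 5xFAD section, whose leading genes included the complement genes C1qa, C1qb and C1qc beside the thalamic genes Prkcd and Tcf7l2. When every thalamic cluster was cut to the same number of spots in each section, which left 2 spots of this one per section, 13 of 37 genes rose in place of 17 and Cd68 stood at a log2 difference of 3.03. Ctsc, Ctsh, Naglu and Ctsl no longer passed.

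Whether the 5xFAD difference itself differed between areas was tested in a fit added after these values were seen, with area by condition terms and the section as a block. For the thalamus minus the cortex, 10 of 37 genes had an unadjusted p under 0.05 and none passed after adjustment (0.0295% of 13545 genes passed upward). The highest were Cd68 (1.35 ± 0.30, edgeR adjusted p = 0.118), Ctsd (0.85 ± 0.20, adjusted p = 0.124) and Ctsb (0.59 ± 0.14, adjusted p = 0.153). For the hypothalamus minus the cortex 1 gene passed, Npc2, whose 5xFAD difference was lower in the hypothalamus (−0.79 ± 0.16, adjusted p = 0.0430, with 0.096% of all genes passing downward), and it did not pass when either young or either 5xFAD section was left out. Markers of activated microglia (Cd52, −1.90, and Tyrobp, −1.35) and the reactive astrocyte marker C4b (−2.32) passed downward in the same contrast, and their part was not tested. Npc2 stood at 96.0 and 92.2 in young hypothalamus, 91.2 and 96.5 in aged and 100 and 121 in 5xFAD. Both 5xFAD sections were the highest in the hypothalamus as well, the E3 section by little.

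In the hippocampus, 11 genes rose, and all 11 also rose in the cortex and thalamus: Ctsd, Ctss, Ctsz, Hexa, Gusb, Man2b1, Grn, Npc2, Laptm5, Cd63 and Cd68. This overlap has no share of all genes beside it, and the areas come from the same sections. Cd68 stood at 6.26 and 7.64 in young, 9.63 and 8.51 in aged, and 23.7 and 47.6 in 5xFAD hippocampus (2.34 ± 0.25), and Ctsd at 283 and 287, 324 and 301, and 528 and 844 (1.19 ± 0.15). The E4 5xFAD section was the highest for both. In the hypothalamus only Cd68 (1.41 ± 0.17), Ctsz (1.19 ± 0.15) and Ctsd (0.85 ± 0.13) passed. There Cd68 stood at 9.87 and 9.82, then 14.5 and 12.9, then 26.0 and 29.6, and the summed activated microglial markers at 219 and 183, 258 and 266, and 373 and 543.

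Against the aged sections, which share the 5xFAD sections with the comparison above, the 5xFAD cortex had 10 of 37 genes higher (0.435% of all genes) and none lower. They were Cd68 (2.07 ± 0.20), Ctsz (1.56), Ctss (1.42), Ctsd (1.40), Hexa (1.07), Laptm5 (1.03), Npc2 (0.87), Man2b1 (0.81), Grn (0.79) and Ctsa (0.78). In the hippocampus 11 genes were higher (0.606% of all genes were higher and 0.452% lower) and in the thalamus 17 (1.16%), with Cd68 at 2.55 ± 0.15 and Ctsd and Ctsz each at 1.93. In the cerebral nuclei 11 of 35 were higher (0.523%) and in the fiber tracts 2 of 35 (0.108%, with 0.0325% of all genes lower). In the hypothalamus none passed in the edgeR fit (0.0898% of all genes were higher), and 9 had an unadjusted p under 0.05. The cortical count fell to 5 and the hippocampal count to 4 when the E4 5xFAD section was left out. Leaving out the E4 aged section gave 7 genes in the hippocampus and 6 in the thalamus, and leaving out the E3 aged section gave 7 in the thalamus. The 5xFAD mice were the younger of these pairs, at 12 against 24 months.

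Aged against young, which shares the young sections with the first comparison, gave few calls. No gene passed in the cortex by edgeR (0.0268% of all genes rose) or by DESeq2, and 3 had an unadjusted p under 0.05: Ctss (0.50 ± 0.15), Laptm5 (0.53) and Ctsh (0.55). In the hippocampus Ctss alone rose, from 67.3 and 72.0 to 107 and 119 (0.70 ± 0.11, edgeR adjusted p = 0.00593, with 0.268% of all genes rising). It did not overlap between the ages, and no gene passed there without the E4 young section. In the same comparison the reactive astrocyte markers C4b (1.26) and Gfap (0.72) and hemoglobin transcripts (Hba-a1, 1.77) rose, and their part was not tested. In the thalamus, examined for this comparison after the 5xFAD values were seen, none passed by edgeR (0.114% of all genes rose and 0.0153% fell), 10 had an unadjusted p under 0.05 and 1 passed by DESeq2. Cd68 (1.26 ± 0.20) and Ctss (0.98 ± 0.16) missed narrowly, both at an edgeR adjusted p of 0.0557. Beside them, the activation marker Trem2 rose in aged thalamus by 1.06 ± 0.14, and the reactive astrocyte marker Gfap and hemoglobin transcripts (Hbb-bs, 3.52 ± 0.19) rose too. Their part was not tested. In the hypothalamus, cerebral nuclei and fiber tracts no gene passed by edgeR, beside 0.18%, 0.119% and 0.0216% of all genes that rose and 0.0524%, 0.0275% and 0% that fell, and 9, 1 and 2 had an unadjusted p under 0.05.

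E4 against E3 over the 3 conditions passed for no gene in any area by edgeR, and for none in the cortex, hippocampus or thalamus by DESeq2 (0.00669% of all genes passed in either direction in the cortex by edgeR). Genes with an unadjusted p under 0.05 numbered 2 in the cortex (Laptm5, 0.36, and Ctsh, 0.39), 6 in the hippocampus, 2 in the thalamus (Man2b1, −0.32, and Ctsl, −0.26), 0 in the hypothalamus, 1 in the cerebral nuclei and 2 in the fiber tracts. These counts have no share of all genes at the same threshold beside them. By adjusted p, 0.0537% of all genes were higher and 0.046% lower in E4 hippocampus, and 0.0153% lower in E4 thalamus. In E4 hypothalamus 0.0224% were higher and 0.0299% lower. In E4 cerebral nuclei 0.00917% were higher and 0.0367% lower, and in E4 fiber tracts 0.0216% were lower. This fit averages the genotype difference over conditions. The pair of sections within a condition can only be set side by side, with an interval that covers counting error and not the variation between mice.

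In the 5xFAD cortex, E4 exceeded E3 beyond counting error for 25 of 37 genes and was lower for 1, Gaa (log2 ratio −0.07, interval −0.13 to −0.01), with a median log2 ratio of 0.22 beside 0.078 over all genes, of which 23% were above and 8.02% below by the same rule. The highest ratios were those of Hexa (0.71, 0.61 to 0.82) and Ctsh (0.71, 0.48 to 0.95), and Cd68 (0.63, 0.48 to 0.78) and Ctsd (0.62, 0.58 to 0.65) were close to them. In the young pair 3 genes were above and 7 below (12.6% and 10.6% of all genes), and in the aged pair 6 above and 1 below (11.8% and 12%). Ctsd was at −0.02 in the young pair and 0.16 (0.07 to 0.26) in the aged pair.

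The 5xFAD thalamus showed the other order for several of these genes. There E4 was above E3 for 2 genes, Psap (0.27) and Gm2a (0.27), and below it for 8, beside 10.5% and 8.34% of all genes and with medians of −0.05 over the 37 and 0.02 over all genes. The latter were Arsa (−0.59), Cd68 (−0.39, −0.60 to −0.19), Man2b1 (−0.35), Ctsl (−0.34), Ctss (−0.25), Ctsz (−0.21), Ctsd (−0.16, −0.20 to −0.11) and Ctsb (−0.12). The thalamus of the young pair had 1 gene above and 12 below (7.26% and 18.7% of all genes), and that of the aged pair none above and 8 below (6.49% and 8.94%). In the 5xFAD hippocampus 13 genes were above and none below (6.39% and 8.47% of all genes, with medians of 0.15 over the 37 and −0.03 over all genes), Cd68 at 1.01 (0.56 to 1.47) and Ctsd at 0.68 (0.58 to 0.77). The summed activated microglial markers moved the same way, at 686 in E3 against 1098 in E4 cortex, 469 against 785 in hippocampus, and 1604 against 1303 in thalamus. The human APP transgene stood at 93.4 in E3 against 122 CPM in E4 cortex, 84.8 against 130 in the hippocampus and 18.0 against 25.9 in the thalamus. Gfap stood at 300 against 376 in the thalamus. Their part was not tested. With 1 mouse per group, genotype, mouse, plane of section and amyloid load cannot be told apart.

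**Figure D3:**
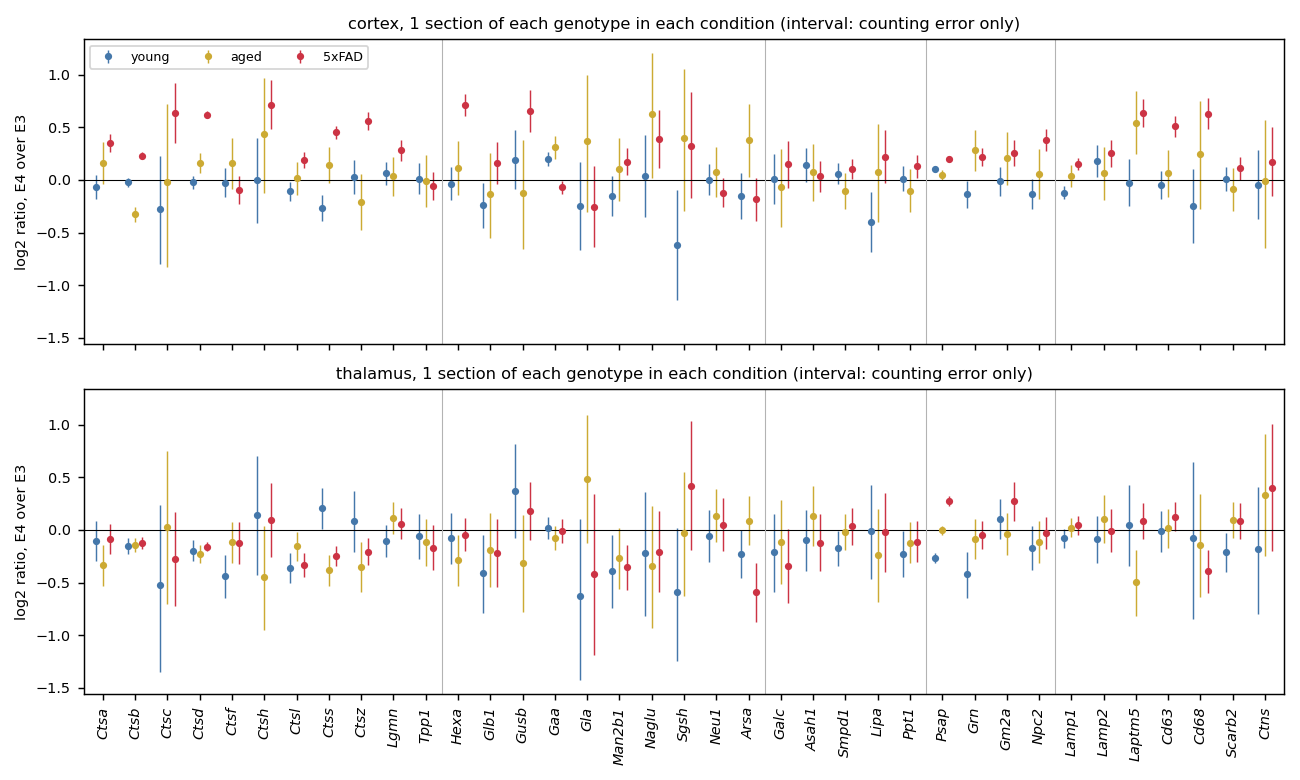
Log2 ratio of E4 over E3 for the 37 genes in the cortex (top) and thalamus (bottom), 1 section of each genotype per condition (blue young, yellow aged, red 5xFAD), with an exact 95% interval of counting error only. In the cortex the red points of Hexa, Ctsd and Cd68 lie at 0.62 to 0.71 while their blue points lie near or below 0, and in the thalamus the red points of Cd68 and Ctsd lie below 0.

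Within each 5xFAD section, cortical spots with at least 2 UMIs of Cst7, a cystatin switched on in activated microglia, were set beside spots with none. Cst7 itself stood at 0.07 and 0.13 CPM in young cortex, 1.71 and 0.94 in aged cortex and 50.4 and 117 in 5xFAD cortex, and was the 1 of 6 cathepsin inhibitors that rose. There were 153 and 635 such spots in E3 and 433 and 307 in E4, leaving out those with 1 UMI. In either section 23 of 37 genes were higher beyond counting error in the spots with Cst7 and none was lower. Of all genes, 5.3% were higher and 4.74% lower in E3, and 5.55% higher and 6.59% lower in E4. The median log2 ratio was 0.41 in E3 and 0.38 in E4, beside −0.01 and −0.02 over all genes. Cd68 had a ratio of 1.04 in both sections, Ctsz 1.15 and 0.81, Ctss 1.13 and 0.77, and Ctsd 0.98 and 0.69. Other genes were higher in the same spots, Trem2 at 198 against 86.2 CPM in E3 and 255 against 124 in E4. Gfap was higher by log2 ratios of 0.89 and 0.69 and human APP by 0.37 and 0.45. The microglial genes P2ry12 (0.53 and 0.36) and Cx3cr1 (0.60 and 0.49) were higher too, while Tmem119 (0.08 and 0.19) did not differ beyond counting error. The neuronal gene Snap25 was slightly lower (−0.10 and −0.08). The part of all these genes was not tested.

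Psap (0.05 and −0.00), Smpd1 (−0.04 and −0.09) and Neu1 (−0.28 and −0.13) did not differ beyond counting error between these spots. Even in the spots without Cst7, Ctsd stood at 638 and 887 CPM and Cd68 at 36.0 and 44.5, above the cortex of every section without the transgenes. Spots with Cst7 were deeper, with medians of 13032 against 11697 UMIs in E3 and 16635 against 14414 in E4. Spots of a section are not replicates, and no test was made.

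**Figure D4:**
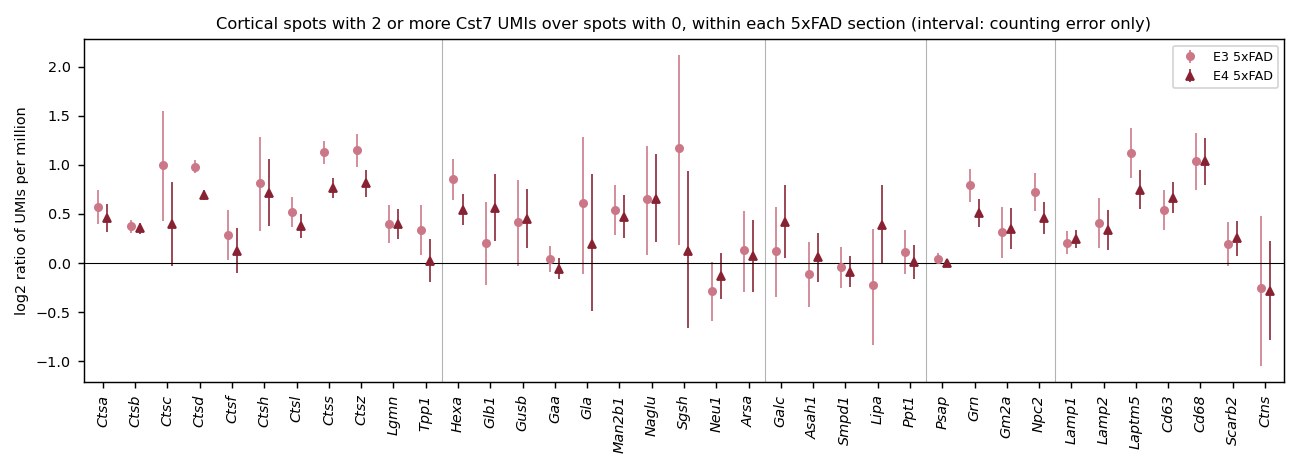
Log2 ratio of CPM in cortical spots with 2 or more Cst7 UMIs over spots with none, within the E3 (circles) and E4 (triangles) 5xFAD sections, with an exact 95% interval of counting error only. Cd68 lies at 1.04 in both, Ctsz and Ctss at 0.77 to 1.15, and Psap, Smpd1 and Neu1 lie at or below 0.05.

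Areas also differed from the cortex, tested over all sections with the section as a block. This fit pools the conditions and has no area by condition term, so 5xFAD differences that vary between areas enter the area differences. The 37 made up 0.476% and 0.423% of the UMIs in E3 and E4 young thalamus, against 0.421% and 0.426% in young cortex. In 5xFAD the shares were 0.875% and 0.853% against 0.590% and 0.721%. The thalamus had 24 of 37 genes higher and none lower (31.4% and 21.2% of 13093 genes), with a median log2 difference of 0.39 beside 0.07 over all genes, with 14 genes without the E3 5xFAD section and 15 without the E3 aged section. Its highest were the sulfatases Arsa (1.24 ± 0.10) and Sgsh (0.98 ± 0.15), genes that passed in no area in 5xFAD. The hypothalamus had 12 of 37 higher and 2 lower (29.9% and 21.4%), so that the upward count was near the share of all genes. Its highest was Gaa (1.53 ± 0.10), at 660 and 639 CPM in young, 786 and 829 in aged, and 906 and 672 in 5xFAD sections. In the cortex Gaa stood at 228 to 297. No hypothalamic section overlapped a cortical one for Gaa.

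The hippocampus was the area with lower levels, with 9 genes lower and none higher (16.1% and 19.1% of all genes). They were Sgsh (−0.52), Lgmn (−0.34), Glb1, Arsa (−0.33 each), Ctsb, Asah1 (−0.25), Smpd1, Lamp1 (−0.24) and Psap (−0.18), with a median over the 37 of −0.14 beside 0.02 over all genes. In the cerebral nuclei 2 genes were higher (14.8%), Gaa (0.43) and Man2b1 (0.34), and 2 lower (12.1%), Neu1 (−0.36) and Smpd1 (−0.22). Neu1, the sialidase, was also lower than in the cortex in the hypothalamus (−0.20), fiber tracts (−0.37) and meninges (−0.39).

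In the fiber tracts 19 genes were higher and 1 lower (16% and 13.3% of all genes), led by Cd63 (1.21 ± 0.18), Scarb2 (1.21 ± 0.11), Lamp1 (1.08), Lamp2 (1.06) and Ctss (1.04), so that membrane proteins took the first 4 places. Without the E3 young section 9 genes differed in place of 20, without the E3 aged section 11 and without the E4 young section 13. Scarb2 stood there at 227 and 186 in young, 244 and 104 in aged, and 183 and 243 in 5xFAD sections, and at 76.2 to 103 in the cortex. The E4 aged section was the lowest, and its oligodendrocyte markers in the fiber tracts were also low, at 6083 CPM against 19602 to 35174 in the other 5. Their part was not tested.

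The meninges had 22 genes higher and 1 lower (17.4% and 15.8%), led by Ctsh (1.68 ± 0.27), Cd63 (1.64) and Ctsc (1.46), and 12 differed without the E3 aged section. The ventricular system, which holds the choroid plexus and ependyma, had 27 higher and none lower (29.2% and 23.1%), led by Ctsc (2.75 ± 0.25), Cd63, Lamp2 (2.34 ± 0.16), Npc2 (1.83 ± 0.16) and Lipa (1.67). Cd63 stood there at 277 to 514 CPM against 60.5 to 133 in the cortex, with no overlap, although this area held only 14 to 55 spots per section. Cd68 (−0.85 ± 0.44), Laptm5 (−0.11), Grn (−0.06) and Ctss (0.04), which rose in 5xFAD cortex, did not pass in the ventricular system. Of 18 proton pump genes, 12 were lower and 3 higher than in the cortex in the ventricular system, 12 lower and 1 higher in the fiber tracts, and 15 lower and 1 higher in the meninges. Atp6v0e was higher in all 3 of these areas (2.25, 0.85 and 1.06).

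**Figure D5:**
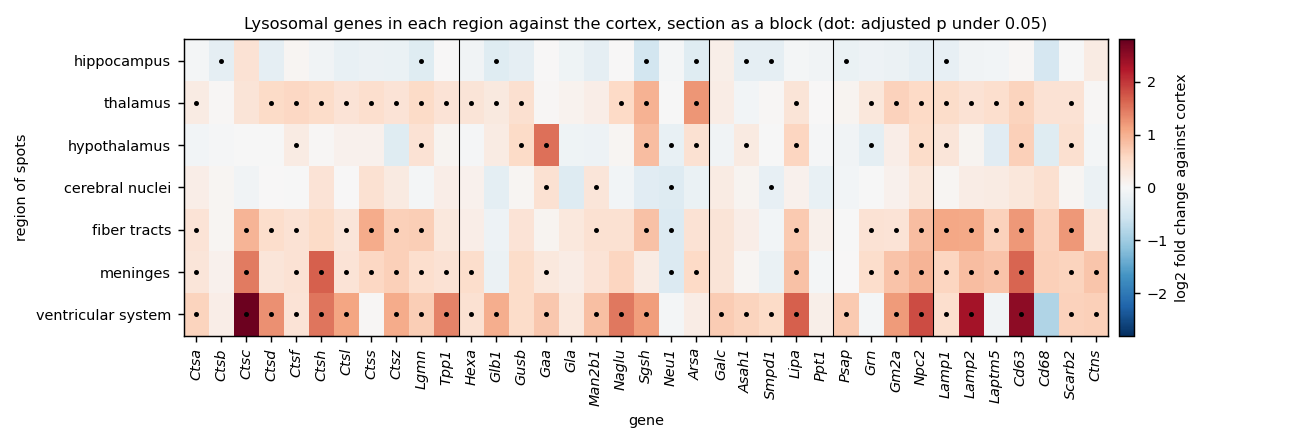
Log2 fold change of each of the 37 genes (columns, in the order of their roles) in 7 areas against the cortex (rows), from the edgeR fit with section as a block; red is higher, blue lower, and a dot marks an adjusted p under 0.05. Ctsc, Cd63 and Lamp2 of the ventricular system (2.34 to 2.75) are the strongest cells, Gaa (1.53) is the strongest of the hypothalamic row, and the hippocampal row holds 9 dots, all on lower genes.

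The promoter matches were also counted by outcome. Of the 15 genes with a promoter window that rose in the cortex, 3 held CACGTG (Ctsa, Ctsd and Naglu), and of the other 19 it was held by 9. In the thalamus the counts were 4 of 15 and 8 of 19. No test was made on these counts. GAGGAAGT stood in 3 of the 15 that rose in the cortex (Ctsc, Ctss and Gusb) and in 1 of the other 19 (Gla).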

How the data were processed

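The values were used as the authors deposited them, as counts: whole UMI numbers for each gene in each spot, from Space Ranger 1.3.0 with STAR 2.5.1b on mm10 and GRCh38 (submitters' processing notes), with nothing scaled. The header version is 1.2.2 in 5 sections and 2.0.0 in the E3 section with 5xFAD. Spots marked as tissue by the deposited masks and present in the matrices were used, 14524 of 16979. The loss was uneven. The E3 5xFAD section kept 2773 of 2775 mask spots, and the E4 5xFAD section 2660 of 3270. The E3 and E4 young sections kept 2670 of 3105 and 2367 of 2836, the aged sections 2366 of 2768 and 1688 of 2225. Barcodes outside the mask were dropped too, and 2660 of 3332 were used in the E4 5xFAD section. Whether the mask of a section matches its matrix was not tested. Mouse genes and the human genes that the mice carry were kept, and some genes are not reported here. Spots of any depth were kept, and doublets were not called, since a spot covers several cells by design.

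Spots were scaled to 10000 UMIs, log-transformed, centred within section and clustered (3000 variable genes without the 37, 20 components, 20 neighbours, Louvain resolution 0.8, 19 clusters). A cluster took the area whose markers had the highest mean z score, and the rule for naming was completed after the clusters were seen. UMIs were summed per area and section. Sums were tested with edgeR 4.0.16 (filterByExpr, TMM, glmQLFit, glmQLFTest, Benjamini-Hochberg threshold 0.05) in R 4.3.3, and the method was tested on simulated counts. Ratios of 2 sections have exact Clopper-Pearson intervals of 95%, which cover counting error only. Alternatives were DESeq2 1.42.0, library sizes alone, no filter, clusters without centring, spots with at least 3000 UMIs, the same number of spots per cluster, and leaving out each section. All 37 genes could be named, and of other lists those that passed, up to 3 per direction, and defining cell type markers. The 37 genes and all lists were chosen with earlier results of these data known.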

Additional observations from a re-analysis of the deposited data

Results flagged for a closer look

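The 5xFAD difference of Npc2 was lower in the hypothalamus than in the cortex by 0.789 on the log2 scale (value −0.789, edgeR adjusted p = 0.0430 over all genes), with the hypothalamic values between 91.2 and 121 CPM in all 6 sections.

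In the fiber tracts, Lamp2 was higher in the aged than in the young section of E3 mice (log2 ratio 0.572, interval 0.10 to 1.03) and lower in E4 mice (−0.798, interval −1.24 to −0.36). This difference between the genotypes was not tested. It rests on 67 against 101 UMIs in E3 and 77 against 108 in E4, and on the E4 aged section, whose oligodendrocyte markers were low in this area.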

How the results depend on the processing

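No paired analysis was possible because each group had 1 section and the same replicate number, which pairs nothing. In fits that left out a section, a condition with 1 section left was assumed to vary like the others. No difference changed direction where it had passed. Numbers below are counts of the lysosomal genes that passed. In 5xFAD against young cortex (16), other settings gave 12 to 17, and leaving out a section gave 5 (E4 young) to 18 (E4 aged), with 10 without E4 5xFAD. Cd68, Ctsd, Ctss, Ctsz and Laptm5 passed under all 12 alternatives, whereas Lamp2 passed under 4, Naglu 5, Gusb 6 and Cd63 7. In the thalamus the range without a section was 17 to 18. The hippocampus (11) gave 6 by DESeq2 and 7 (without E4 5xFAD) to 15 (without E4 aged). The hypothalamus (3) gave 8 without the filter, 5 with spots of at least 3000 UMIs, and 2 (without E4 young) to 10 (without E3 5xFAD). The cerebral nuclei (11) gave 4 by DESeq2 and 4 (without E4 young) to 13 (without E4 aged), with 6 without E4 5xFAD. The fiber tracts (2) gave 4 with library sizes, 5 without the filter, 1 by DESeq2, without centring and with the same spots, 0 at 3000 UMIs, and 0 (without E3 young, E4 young or E4 5xFAD) to 11 (without E4 aged), with 10 without E3 aged.

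Aged against young gave 0 (without E4 young) to 2 (without E4 aged) in the hippocampus (1). In the thalamus (0) it gave 2 with library sizes or without centring, 4 without the filter, 1 by DESeq2, at 3000 UMIs and with the same spots, and 0 (without E3 aged) to 5 (without E4 young). In 5xFAD against aged, the cortex (10) gave 18 without the filter and 5 (without E4 5xFAD) to 15 (without E3 5xFAD). The hippocampus (11) gave 3 by DESeq2, 7 with the same spots, and 4 (without E4 5xFAD) to 13 (without E3 5xFAD), with 7 without E4 aged. The thalamus (17) gave 10 with the same spots and 6 (without E4 aged) to 19 (without E4 young), with 7 without E3 aged. E4 against E3 gave 0 to 2 (without E3 aged) in the hippocampus and 0 in the cortex and thalamus without any section.

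Against the cortex, genes that passed in either direction in the hippocampus (9) numbered 14 without the filter and 6 to 9 without a section. The thalamus (24) gave 14 (without E3 5xFAD) to 25 (without E4 young), with 15 without E3 aged. The fiber tracts (20) gave 13 without the filter, 8 at 3000 UMIs, and 9 (without E3 young) to 22 (without E4 aged), with 13 without E4 young and 11 without E3 aged. The meninges (23) gave 12 (without E3 aged) to 21 (without E4 aged). Ranges without a section were 24 to 28 in the ventricular system, 3 to 5 in the cerebral nuclei and 12 to 16 in the hypothalamus. The 5xFAD difference of the thalamus minus the cortex (0) gave 4 without the filter and 0 to 2 without a section, and that of the hypothalamus minus the cortex (1) gave 5 without the filter and 0 to 1, with 0 without E3 young, E4 young or either 5xFAD section. The causes were not tested.

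The precision is limited by 1 section per group, by low UMI numbers of Ctsc, Ctsh, Gla, Naglu and Sgsh, and by small sums in the fiber tracts, meninges and ventricular system.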
